A study of Mus musculus with 6 samples.

Results

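The genes of the ATF4 amino acid response were examined in natural killer (NK) cells, cytotoxic lymphocytes of innate immunity, after culture at low oxygen. The genes were 34 listed members, taken from 56953 Ensembl genes by matching IDs to mouse symbols, and listed for their known roles in serine, one-carbon, proline and asparagine synthesis, amino acid transport and stress signalling. The list was drawn up with earlier results of these data known, so its counts describe these data and are no independent test. NK cells came from the spleens of wild-type C57BL/6 mice and were kept for 7 days with recombinant human interleukin-2 (1700 U/ml) and 5% CO2, either at 20% oxygen (normoxia, 3 libraries) or at 1% oxygen (hypoxia, 3 libraries). Both groups shared a medium of RPMI-1640 and fetal calf serum to which L-glutamine, non-essential amino acids, pyruvate and β-mercaptoethanol were added. The labels call the libraries biological replicates without naming the mice, pools or cultures behind them, so p-values measure only the spread between these libraries, which may be technical. Total estimated counts per library ran from 55104810 to 55794698, and 1 count was worth about 0.018 CPM, the count scaled to the TMM-adjusted library total and the unit of all levels here. Log2 changes compare hypoxia with normoxia and are negative where hypoxia was lower.

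ATF4 is a transcription factor of the integrated stress response. Kinases that sense amino acid shortage, unfolded protein, double-stranded RNA or haem deficiency phosphorylate the initiation factor eIF2, which lowers protein synthesis in general but favours translation of the Atf4 mRNA. The ATF4 protein pairs with C/EBP proteins on C/EBP-ATF response elements and induces genes that make, import and charge amino acids, together with feedback genes that restore translation. In lymphocytes stimulated to grow, ATF4 and its targets are known to support amino acid supply. The libraries measured mRNA alone, so neither ATF4 protein nor eIF2 phosphorylation was observed.

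The response element was looked for in the RefSeq promoter windows of the members (build GRCm38.p6), which reach from 250 bases before to 50 bases after a transcription start. Windows were found for 29 of the 34 members, 35 windows in all, and not for Eif4ebp1, Aldh1l2, Cth, Slc7a5 and Slc1a5. The core letters TGATGNAA were searched on both strands, and 9 of the 29 members (31.0%) held a match, against 4.51% of 27025 genes with a window and 2.80% of 10557 tested genes with a window. Counted by window, 25.7% of 35 member windows held it, against 3.97% of 32851 windows. The narrower letters TGATGCAA, which are contained in the first search, were in 7 members (24.1%), against 1.03% of genes with a window and 0.739% of tested genes with one. The cyclic AMP response element TGACGTCA, a palindrome, was in 1 member, Ppp1r15a (3.45% of members with a window), against 2.03% of genes with a window and 3.53% of tested genes with one. The stretches below are shown because they carry these matches, which stand in capitals, as read on the strand of the gene. A match is a description of the letters and not a mapped binding site. The members were listed as ATF4 response genes, so their share of matches describes the list and is no test of it. In Atf3 (chr1:191183385-191183494, minus strand) the match began at position -110 from the start, in Chac1 (chr2:119350998-119351107, plus strand) at -193, in Pycr1 (chr11:120643793-120643902, minus strand) at -103, and in Slc7a11 (chr3:50443621-50443730, minus strand) there were 2 matches, at -66 and -47. None of these 5 matches lay in an exon of the GENCODE M21 annotation of the same build.
Atf3: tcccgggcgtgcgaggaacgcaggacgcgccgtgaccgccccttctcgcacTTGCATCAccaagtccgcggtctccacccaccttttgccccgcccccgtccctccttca
Chac1: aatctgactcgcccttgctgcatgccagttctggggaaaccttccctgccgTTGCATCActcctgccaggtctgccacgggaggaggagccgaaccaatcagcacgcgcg
Pycr1: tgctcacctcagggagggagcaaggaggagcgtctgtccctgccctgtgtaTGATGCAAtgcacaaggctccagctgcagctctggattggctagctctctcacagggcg
Slc7a11: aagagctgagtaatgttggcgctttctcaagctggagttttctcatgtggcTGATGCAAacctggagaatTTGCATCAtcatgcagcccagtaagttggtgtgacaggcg
For the other members only 30 bases around the match are given. The match in Nupr1 (chr7:126625562-126625591, minus strand) began at -110 and that in Asns (chr6:7693214-7693243, minus strand) at -23, both within exons of the same gene in GENCODE M21. The match in Slc1a4 (chr11:20332699-20332728, minus strand) spanned the start and lay in an exon of that gene, that in Trib3 (chr2:152344028-152344057, minus strand) began 15 bases after it, and that in Vldlr (chr19:27216809-27216838, plus strand) began at -200 from the second of its starts, in a Vldlr exon. The cyclic AMP element of Ppp1r15a (chr7:45526262-45526291, minus strand) began at -12.
Nupr1: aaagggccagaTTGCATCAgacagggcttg
Asns: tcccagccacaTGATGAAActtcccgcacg
Slc1a4: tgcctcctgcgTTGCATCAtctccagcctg
Trib3: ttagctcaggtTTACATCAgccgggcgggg
Vldlr: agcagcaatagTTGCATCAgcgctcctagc
Ppp1r15a: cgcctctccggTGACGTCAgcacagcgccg

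**Figure D1:**
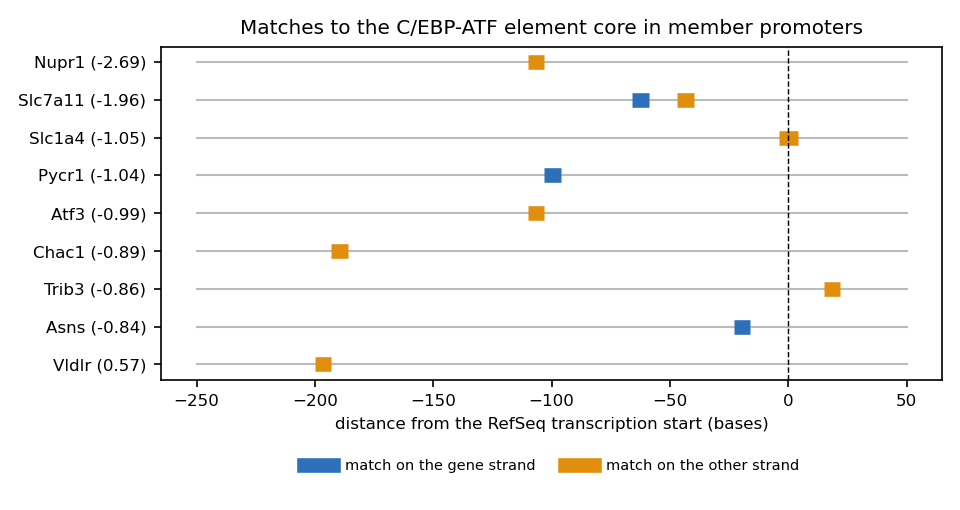
Positions of matches to the core letters of the C/EBP-ATF response element in the promoter windows of 9 members. The x axis gives the distance from the RefSeq transcription start in bases, each grey line is 1 window, coloured blocks are matches on either strand, and the value after each name is its log2 fold change. Of the 9 genes, 8 were called lower in hypoxia and Vldlr was not called, beside 22 called lower of all 29 members with a window.

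After 7 days at 1% oxygen, most genes of the ATF4 response had less mRNA than at 20% oxygen, and no member rose past the threshold. Of the 34 members, 27 fell and 0 rose (edgeR quasi-likelihood test, Benjamini-Hochberg adjusted p under 0.05 over 15591 tested genes), while 9.72% of all tested genes were called lower and 11.2% higher. At an unadjusted edgeR p under 0.05 there were 30 of the 34 members, against 5244 of the 15591 tested genes in either direction. Of these 30 members Vldlr alone was higher, and it was also the 1 member called higher by limma-voom and by the DESeq2 Wald test. The median log2 fold change of the members was -0.66, and that of all tested genes was -0.0052. The largest decreases were in Nupr1, Slc7a11, Cth, Slc6a9, Gpt2, Slc7a5, Aldh1l2, Slc1a4 and Pycr1, the 9 members that were called and fell at least 2-fold, a change reached by 1.91% of tested genes. The members that did not pass were Atf5, Cebpg, Sesn2, Vldlr, Psph, Mthfd1l and Shmt1. Every hypoxia library lay below every normoxia library for 29 members, against 18.7% of tested genes, and above every normoxia library for 1 member, against 19.6%. In bulk samples fewer cells expressing a gene and less of its mRNA per cell cannot be told apart.

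All 34 members passed the filter on low counts. Slc7a11 had 3 normoxia and 2 hypoxia libraries over the cutoff, so its hypoxia libraries alone would not have sufficed. Its call is thus no support for a difference. Without Slc7a11, 26 of 33 members fell with a median of -0.65, 8 of them at least 2-fold. Libraries with the same replicate number deviated together, and when the fit held that number as a term (the replicate block) 29 members fell and Vldlr rose, against 20.0% and 19.2% of tested genes. Without hypoxia replicate 2, 23 members and 804 genes in all were called lower and 1160 higher, and without normoxia replicate 2 these were 24 members, 942 genes and 1146 genes. Scaling by library size alone called 25 members lower and 1 higher, 998 genes lower and 2384 higher, so that 70.5% in place of 53.5% of all calls were higher.

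**Figure D2:**
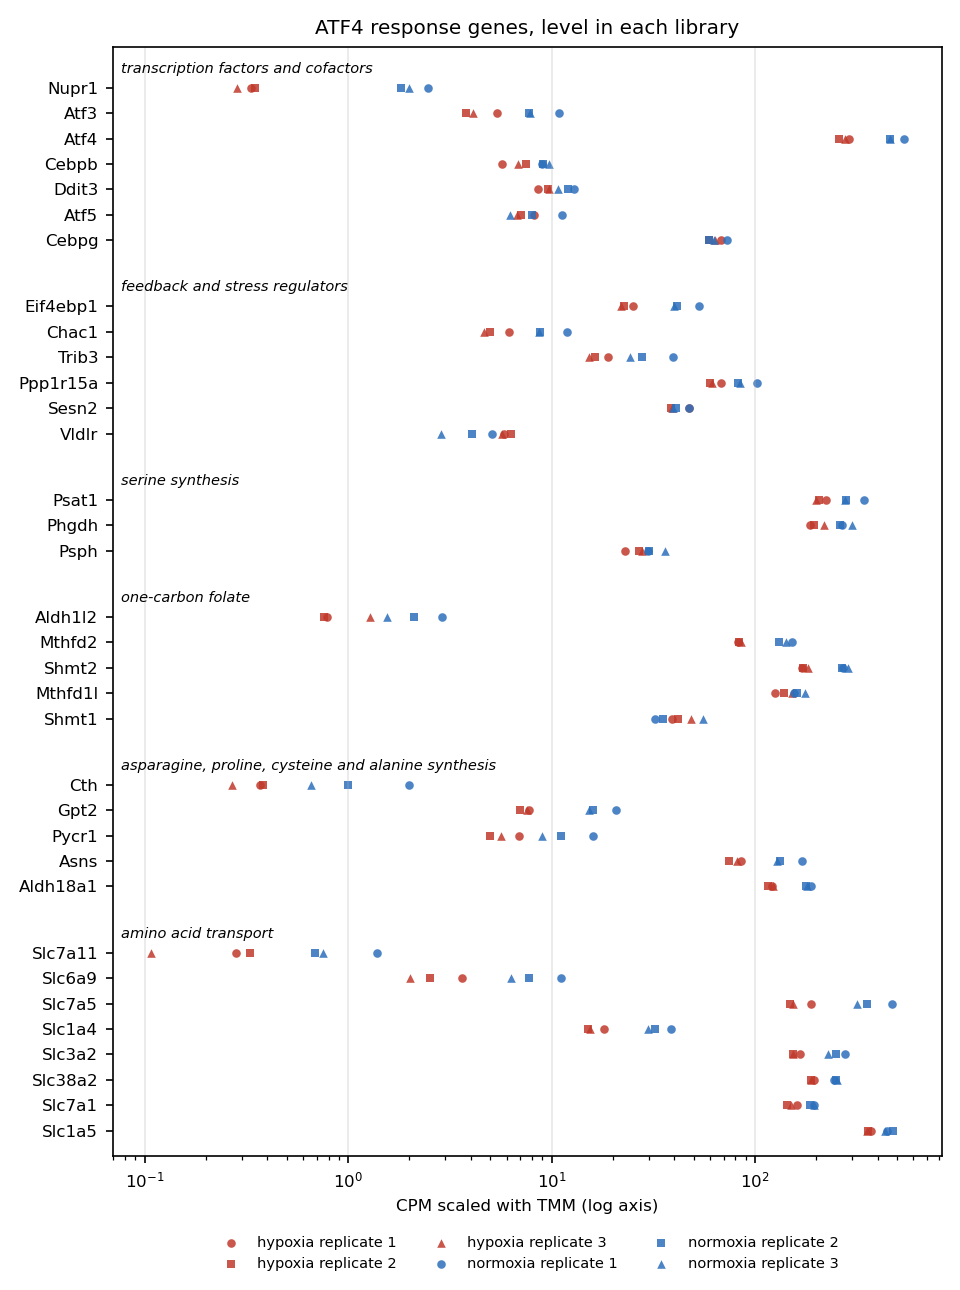
Level of each of the 34 members in each library, in CPM scaled with TMM on a log axis, grouped by role, with hypoxia in red and normoxia in blue and a symbol per replicate. For 29 members the 3 hypoxia points lie left of the 3 normoxia points, and Vldlr is the member with all hypoxia points to the right.

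Among the 7 transcription factors and cofactors, 5 fell and 0 rose, at a median log2 change of -0.47. Atf4 itself (ENSMUSG00000042406), the regulator of the programme, stood at 289.9, 259 and 277 CPM in hypoxia replicates 1, 2 and 3 and at 541, 463 and 460.01 CPM in normoxia replicates 1, 2 and 3 (log2 change -0.83, standard error 0.09, adjusted p = 0.00026 in edgeR), the order in which libraries are given throughout. The groups did not overlap, and Atf4 was 1.77-fold lower, with means of 275 ± 15.5 CPM in hypoxia and 488 ± 46.1 CPM in normoxia (SD, n = 3). Nupr1 (ENSMUSG00000030717), a small chromatin-associated stress protein, had 0.333, 0.346 and 0.285 CPM in hypoxia and 2.46, 1.81 and 1.99 CPM in normoxia (log2 change -2.69, standard error 0.22, adjusted p = 5.2e-05 in edgeR). It was the member with the largest decrease, 6.45-fold. Its level was low in all 6 libraries. Atf3, a stress-induced factor that can repress its targets, measured 5.36, 3.81 and 4.09 CPM in hypoxia against 10.8, 7.69 and 7.84 CPM in normoxia (log2 change -0.99, standard error 0.17, adjusted p = 0.0035 in edgeR), again without overlap.

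Ddit3, which encodes CHOP, a C/EBP relative linked to cell death under prolonged stress, stood at 8.53, 9.63 and 9.71 CPM in hypoxia and 12.9, 12.004 and 10.7 CPM in normoxia (log2 change -0.35, standard error 0.10, adjusted p = 0.037 in edgeR). The difference was smaller than for Atf4 and its call was lost without hypoxia replicate 1, 2 or 3 (edgeR adjusted p = 0.12, 0.096 and 0.060), without normoxia replicate 1 or 2 (0.082 and 0.11), without the replicate 1 pair (0.18, log2 fold change -0.23) and under library size scaling (0.089). Cebpb, a C/EBP partner of ATF4, had 5.69, 7.48 and 6.81 CPM in hypoxia and 8.99, 9.03 and 9.69 CPM in normoxia (log2 change -0.47, standard error 0.12, adjusted p = 0.02 in edgeR). Its call was likewise lost without hypoxia replicate 1 or 3 (edgeR adjusted p = 0.071 and 0.051), without normoxia replicate 2 or 3 (0.058 and 0.055), without the replicate 1 pair (0.0503) and under library size scaling (0.053). A stretch of 320 bases of Cebpb matches the opposite strand of Tmem189, at a mean of 5611 against 440.2 counts. The sources used here do not give the strand setting of the counting. Tmem189 had a log2 fold change of 0.18 (edgeR adjusted p = 0.28).

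Atf5 and Cebpg were not called. Atf5, a relative of ATF4, stood at 8.22, 7.03 and 6.76 CPM in hypoxia and 11.3, 8.04 and 6.25 CPM in normoxia (log2 change -0.21, standard error 0.19, adjusted p = 0.48 in edgeR), with overlapping groups and a ratio above 1 in replicate 3. Cebpg, which forms dimers with ATF4, stood at 67.96, 59.5 and 63.6 CPM in hypoxia and 72.6, 59.2 and 62.5 CPM in normoxia (log2 change -0.024, standard error 0.09, adjusted p = 0.89 in edgeR). Its sign was positive with scaling by library size (log2 fold change 0.061).

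Of the 6 feedback and stress regulators, 4 fell and 0 rose (median log2 fold change -0.68). Eif4ebp1, which encodes 4E-BP1, a repressor of cap-dependent translation, fell from 52.8, 41.1 and 40.1 CPM in normoxia to 24.97, 22.7 and 21.8 CPM in hypoxia (log2 change -0.95, standard error 0.11, adjusted p = 0.00042 in edgeR). Chac1, which encodes an enzyme that breaks down glutathione, fell from 11.8, 8.78 and 8.70 to 6.18, 4.97 and 4.64 CPM (log2 change -0.89, standard error 0.16, adjusted p = 0.0035 in edgeR). Trib3, a pseudokinase that restrains ATF4 activity, fell from 39.4, 27.7 and 24.2 to 18.8, 16.3 and 15.2 CPM (log2 change -0.86, standard error 0.17, adjusted p = 0.0055 in edgeR). For these 3 genes the groups did not overlap, and replicate 1 was the highest library of each group. Ppp1r15a, which encodes GADD34, the stress-induced subunit that directs a phosphatase to eIF2, fell from 102, 81.96 and 84.1 to 68.01, 59.9 and 61.7 CPM (log2 change -0.50, standard error 0.10, adjusted p = 0.0055 in edgeR).

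Sesn2, an inhibitor of mTORC1 that senses leucine, stood at 47.2, 38.7 and 39.2 CPM in hypoxia and 47.4, 40.7 and 39.4 CPM in normoxia, with ratios near 1 in all 3 pairs (log2 change -0.028, standard error 0.10, adjusted p = 0.88 in edgeR). With scaling by library size its log2 fold change was 0.057. Vldlr, a lipoprotein receptor, was the member with the highest log2 fold change, at 5.83, 6.32 and 5.73 CPM in hypoxia and 5.10, 4.06 and 2.87 CPM in normoxia (log2 change 0.57, standard error 0.19, adjusted p = 0.056 in edgeR). Its groups did not overlap, in the direction opposite to the other 29 non-overlapping members. Vldlr passed with the replicate block (edgeR adjusted p = 0.0059), without normoxia replicate 1 (0.0086), without the replicate 1 pair (0.015), with no filter (0.0081), under library size scaling (0.030) and with limma-voom and the DESeq2 Wald test (adjusted p = 0.041 and 0.017).

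Serine is made from a glycolytic intermediate by PHGDH, PSAT1 and PSPH in sequence. Phgdh, the gene of the first enzyme, fell from 266, 262 and 299.98 CPM in normoxia to 186, 195 and 219 CPM in hypoxia (log2 change -0.46, standard error 0.09, adjusted p = 0.0057 in edgeR). It has 9 annotated pseudogenes of at least 95% identity, which held at most 5.2 counts on average. Psat1, the gene of the aminotransferase, fell from 343, 279 and 278 to 224, 205 and 200.1 CPM (log2 change -0.52, standard error 0.10, adjusted p = 0.0054 in edgeR). Psph, the gene of the phosphatase, stood at 22.9, 26.97 and 27.8 CPM in hypoxia and 29.7, 30.0004 and 36.2 CPM in normoxia without overlap, and did not pass (log2 change -0.30, standard error 0.11, adjusted p = 0.07 in edgeR). It passed with the replicate block (edgeR adjusted p = 0.0024), with no filter (0.020), without normoxia replicate 1 (0.042) and with the DESeq2 Wald test (adjusted p = 0.044). Psph shares 255 bases with the opposite strand of Cct6a, which had 17127 counts on average and a log2 fold change of -0.18 (edgeR adjusted p = 0.33).

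Of the 5 one-carbon genes, the mitochondrial enzymes and the cytosolic one are described apart. Shmt2, the mitochondrial enzyme that splits serine into glycine and a folate-bound carbon, fell from 269.6, 266 and 285 CPM in normoxia to 171, 172 and 181 CPM in hypoxia (log2 change -0.65, standard error 0.07, adjusted p = 0.00029 in edgeR). Its cytosolic counterpart Shmt1 stood at 38.9, 41.6 and 48.1 CPM in hypoxia and 32.1, 35.4 and 55.3 CPM in normoxia, with overlapping groups (log2 change 0.066, standard error 0.18, adjusted p = 0.84 in edgeR). Whether the 2 genes differed in their change was not tested. Mthfd2, the mitochondrial dehydrogenase and cyclohydrolase of the same route, fell from 152, 131 and 142 to 82.6, 83.2 and 85.1 CPM (log2 change -0.76, standard error 0.08, adjusted p = 0.00016 in edgeR). The gap between the groups was wider than the range within either. Mthfd1l, which releases formate in mitochondria, stood at 126, 138 and 153 CPM in hypoxia and 156, 161 and 177 CPM in normoxia, lower in each of 3 pairs, and was not called (log2 change -0.24, standard error 0.09, adjusted p = 0.084 in edgeR). With the replicate block Mthfd1l passed (edgeR adjusted p = 0.0020). Aldh1l2, which oxidises mitochondrial formyl-folate, fell from 2.89, 2.10 and 1.55 to 0.788, 0.762 and 1.28 CPM (log2 change -1.21, standard error 0.28, adjusted p = 0.014 in edgeR). Its log2 ratio was -1.88, -1.46 and -0.28 in pairs 1, 2 and 3, and its call was lost without hypoxia replicate 2 (edgeR adjusted p = 0.057) and without both replicate 1 libraries (0.067, log2 fold change -0.84). A stretch of 1056 bases of Aldh1l2 lies opposite D10Wsu102e, which had 6036 counts on average against 85.7 and a log2 fold change of 0.025 (edgeR adjusted p = 0.85). The level of Aldh1l2 is therefore uncertain.

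The 5 genes of asparagine, proline, cysteine and alanine synthesis all fell, at a median log2 change of -1.04. Asns, which encodes asparagine synthetase, the classic amino acid response gene, went from 169.8, 133 and 128 CPM in normoxia to 85.01, 74.7 and 81.2 CPM in hypoxia (log2 change -0.84, standard error 0.11, adjusted p = 0.00073 in edgeR). Asns was 1.79-fold lower with no overlap. Aldh18a1, which starts proline synthesis from glutamate, fell from 188, 178 and 179 to 120.4, 115 and 122 CPM (log2 change -0.61, standard error 0.07, adjusted p = 0.00032 in edgeR). Pycr1, the mitochondrial reductase that completes it, fell from 15.9, 11.1 and 8.94 to 6.90, 4.97 and 5.60 CPM (log2 change -1.04, standard error 0.20, adjusted p = 0.006 in edgeR). Both proline genes were thus lower in every hypoxia library than in every normoxia library. Gpt2, the mitochondrial alanine aminotransferase gene, fell 2.33-fold from 20.8, 15.9 and 15.2 to 7.78, 6.96 and 7.56 CPM (log2 change -1.22, standard error 0.13, adjusted p = 0.0002 in edgeR). Cth, which encodes the enzyme that makes cysteine from cystathionine, was low throughout, at 1.999, 0.996 and 0.658 CPM in normoxia and 0.368, 0.381 and 0.267 CPM in hypoxia (log2 change -1.83, standard error 0.41, adjusted p = 0.011 in edgeR), and the lowest library held 15 counts.

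All 8 amino acid transport genes fell, at a median log2 change of -0.86. Slc7a11 is among the 8, and for the reason given above its call is no support for a difference. Slc7a5, which encodes LAT1, the importer of leucine and other large neutral amino acids, fell 2.32-fold from 468, 355 and 315 CPM in normoxia to 188, 149 and 153 CPM in hypoxia (log2 change -1.22, standard error 0.15, adjusted p = 0.00046 in edgeR), with means of 163 ± 21.2 CPM in hypoxia and 379 ± 79.5 CPM in normoxia (SD, n = 3). Slc3a2, which encodes the CD98 heavy chain that carries LAT1 and xCT to the membrane, fell from 278, 250.4 and 227 to 165, 154 and 154 CPM (log2 change -0.67, standard error 0.09, adjusted p = 0.00071 in edgeR). Slc7a11, which encodes xCT, the cystine importer and partner of CD98, had 1.39, 0.688 and 0.750 CPM in normoxia and 0.280, 0.329 and 0.107 CPM in hypoxia (log2 change -1.96, standard error 0.41, adjusted p = 0.0087 in edgeR), and the lowest library held 6 counts. Its longest transcript holds 373 bases that match the opposite strand of Tuba1b and related tubulin genes, and Tuba1b, at 119034.5 counts on average against 32.2, had a log2 fold change of -0.19 (edgeR adjusted p = 0.16). A stretch of the same length matches the same strand of the noncoding gene AC157548.1, which had 247.1 counts on average and a log2 fold change of 0.035 (edgeR adjusted p = 0.95). The level of Slc7a11 is therefore uncertain.

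Slc6a9, the glycine transporter GLYT1, fell 3.09-fold from 11.1, 7.71 and 6.34 to 3.63, 2.51 and 2.01 CPM (log2 change -1.63, standard error 0.25, adjusted p = 0.0017 in edgeR), and its log2 ratios of -1.62, -1.62 and -1.66 were close to each other in the 3 pairs. Slc1a4, which encodes the exchanger ASCT1 for serine and other small neutral amino acids, fell from 38.7, 32.05 and 29.8 to 18.2, 15.2 and 15.4 CPM (log2 change -1.05, standard error 0.11, adjusted p = 0.00027 in edgeR). Its relative Slc1a5, which encodes the glutamine exchanger ASCT2, fell from 445, 478 and 437 to 370.2, 359 and 355 CPM (log2 change -0.33, standard error 0.07, adjusted p = 0.012 in edgeR). The Slc1a5 call was lost without hypoxia replicate 2 (edgeR adjusted p = 0.070) and without normoxia replicate 2 (0.058). Slc7a1, the cationic amino acid transporter CAT1, fell from 196, 187 and 194 to 159.8, 144 and 149.7 CPM (log2 change -0.35, standard error 0.07, adjusted p = 0.0087 in edgeR), and its call was lost without hypoxia replicate 2 (edgeR adjusted p = 0.070). Slc38a2, which encodes SNAT2, a sodium-coupled importer of small neutral amino acids, fell from 246, 251 and 252 to 196, 188 and 188 CPM (log2 change -0.39, standard error 0.07, adjusted p = 0.0035 in edgeR). In both Slc7a1 and Slc38a2 the groups lay apart by more than the spread within either.

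**Figure D3:**
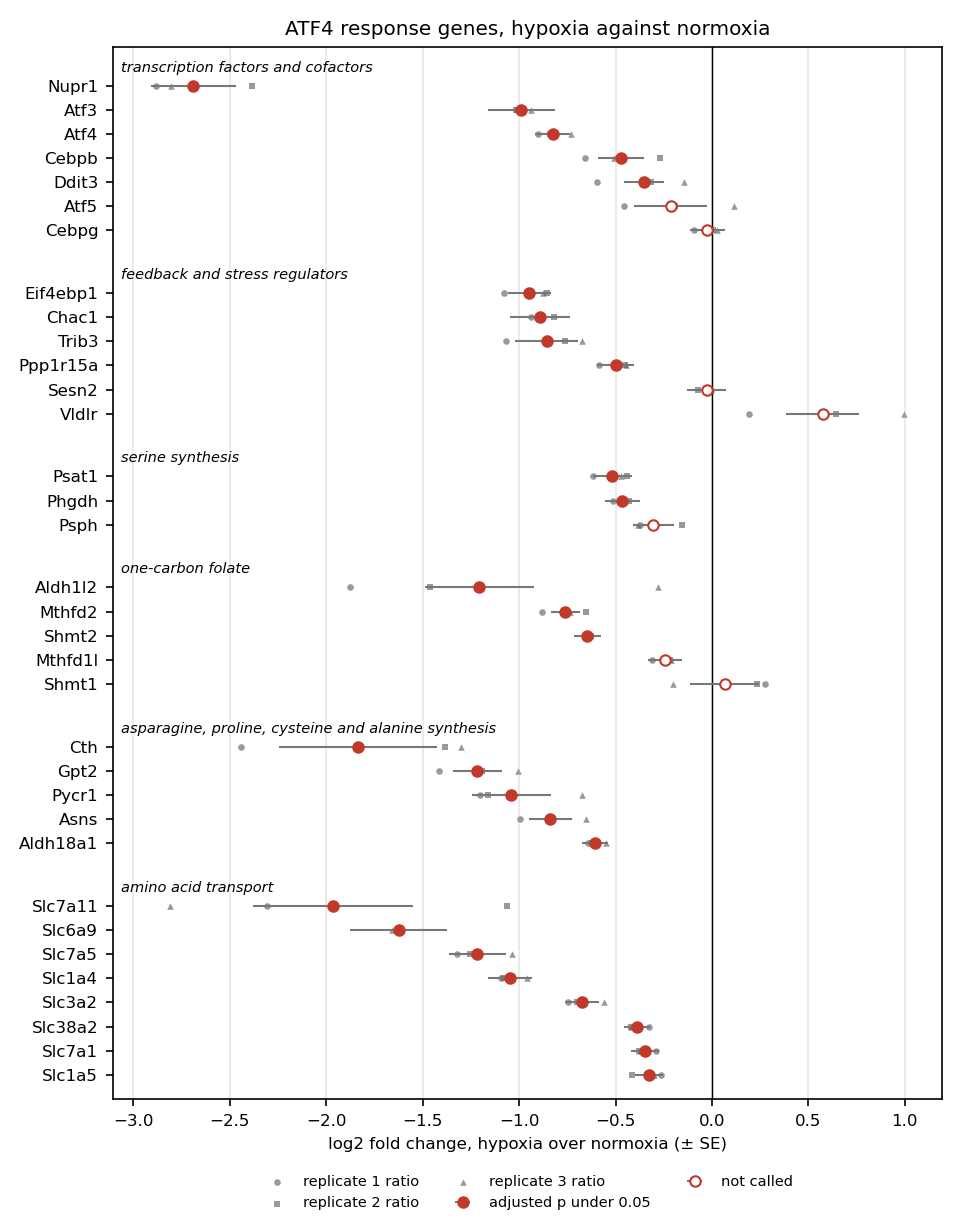
Log2 fold change of each member, hypoxia over normoxia, with its SE as a bar (filled points passed the adjusted p of 0.05, open points did not), and the log2 ratio of each same-numbered pair as grey symbols. Nupr1 lies farthest left at -2.69, Vldlr farthest right at 0.57, and 30 of the 34 members were lower in all 3 pairs. The share of all tested genes lower in all 3 pairs was not computed.

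Members also varied with the replicate number. Of the 34 members, 26 had their highest normoxia value in replicate 1 and 18 had the highest value of both groups there, among them Atf4, Trib3, Chac1, Asns and Slc7a5. By contrast 5 members, Phgdh, Psph, Shmt1, Shmt2 and Mthfd1l, all genes of serine and folate metabolism, were highest in replicate 3 in both groups. The other serine and folate members went otherwise. Psat1 was highest in replicate 1 in both groups, and Mthfd2 and Aldh1l2 in normoxia replicate 1 and hypoxia replicate 3. The median log2 ratio over the members was -0.70 in pair 1, -0.64 in pair 2 and -0.56 in pair 3, with 32, 31 and 31 members lower. Same-numbered libraries deviated together across all tested genes, and shares over all tested genes were not computed for these counts. They are thus no sign of a trait particular to the members. What the replicate numbers stand for was not tested.

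Other genes of the pathway were taken from lists chosen by function, also with earlier results of these data known. Their counts stand against 9.72% of all tested genes called lower and 11.2% called higher, or 20.0% and 19.2% with the replicate block. Of 20 cytosolic aminoacyl-tRNA synthetase genes, which load amino acids onto tRNAs and many of which ATF4 is known to induce, 13 fell and 0 rose, at a median log2 change of -0.45. Cars1, for cysteine, fell from 100.1 ± 2.53 to 62.4 ± 1.56 CPM (log2 change -0.68, standard error 0.06, adjusted p = 0.00012 in edgeR), and Aars1, for alanine, from 277 ± 10.1 to 187 ± 0.855 CPM (log2 change -0.56, standard error 0.07, adjusted p = 0.0005 in edgeR). Upstream, 6 of 17 genes of the eIF2 pathway (kinases, eIF2, its exchange factor and their regulators) fell and 1 rose (median -0.13). They included Eif2ak2, which encodes the RNA sensor PKR and is also induced by interferon, from 65.6 ± 4.77 to 37.01 ± 2.14 CPM (log2 change -0.83, standard error 0.08, adjusted p = 0.00013 in edgeR), and Eif2ak3, the gene of the endoplasmic reticulum (ER) sensor PERK, from 151 ± 7.81 to 113 ± 2.59 CPM (log2 change -0.42, standard error 0.07, adjusted p = 0.0028 in edgeR). The number that fell was 2 without hypoxia replicate 2, 3 without each of hypoxia replicates 1 and 3 and normoxia replicates 2 and 3, and 3 with scaling by library size. The 1 gene that rose was Oma1, a protease gene of mitochondrial stress signalling. No gene of this list was called higher without hypoxia replicate 1 or 3, normoxia replicate 2 or the replicate 1 pair.

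Amino acid transporters, enzymes and folate genes outside the members were counted in the same way. Of 19 other transporter genes tested (22 listed), 2 fell, a share near that of all tested genes, and 6 rose (median 0.069). Slc7a3, a cationic amino acid transporter gene, fell from 9.06 ± 3.59 to 2.01 ± 0.334 CPM (log2 change -2.17, standard error 0.27, adjusted p = 0.0005 in edgeR), and Slc36a4, a transporter gene for proline and tryptophan, rose from 25.3 ± 2.43 to 36.4 ± 0.711 CPM (log2 change 0.52, standard error 0.08, adjusted p = 0.0023 in edgeR). With the replicate block 4 fell, and without hypoxia replicate 2, 1 fell. Of 18 other enzymes of amino acid synthesis and breakdown (20 listed), 4 fell and 0 rose (median -0.14), and 7 fell and 1 rose with the replicate block. At an unadjusted edgeR p under 0.05 there were 7 of the 18, beside 5244 of the 15591 tested genes. Bcat1, the cytosolic branched-chain aminotransferase gene, fell from 12.8 ± 1.69 to 3.003 ± 0.357 CPM (log2 change -2.09, standard error 0.14, adjusted p = 1.7e-05 in edgeR), and Odc1, the gene of ornithine decarboxylase in polyamine synthesis, from 434 ± 27.3 to 275 ± 14.7 CPM (log2 change -0.66, standard error 0.08, adjusted p = 0.0005 in edgeR). Of 13 other folate, serine and glycine genes (14 listed), 3 fell and 2 rose (median -0.0073). Sdsl, a serine dehydratase relative, passed the filter on low counts through its hypoxia libraries alone. Its call among the 2 that rose is thus no support for a difference. Sdsl had means of 0.368 ± 0.0770 and 0.0425 ± 0.0380 CPM in hypoxia and normoxia (SD, n = 3). In this list 1 gene was called higher with the stricter filter.

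Other targets reported for ATF4 and CHOP were also split, with 5 of 17 tested (21 listed) lower and 2 higher (median 0.050). Jdp2, a repressor of the AP-1 family, fell from 15.4 ± 1.02 to 8.35 ± 0.533 CPM (log2 change -0.89, standard error 0.09, adjusted p = 0.00022 in edgeR), and Pmaip1, which encodes the cell death protein NOXA and is also a p53 target, rose from 7.27 ± 1.14 to 19.02 ± 2.46 CPM (log2 change 1.39, standard error 0.13, adjusted p = 0.00014 in edgeR). Of 16 ER chaperone and quality control genes, which ATF6 and XBP1 induce in the unfolded protein response, 0 fell and 2 rose, a share near the 11.2% of all tested genes (median 0.11). An unadjusted edgeR p under 0.05 was found for 5 of the 16, a share near that of all tested genes (5244 of 15591). Sdf2l1, an ER chaperone cofactor, rose from 86.3 ± 12.1 to 113 ± 5.51 CPM (log2 change 0.39, standard error 0.10, adjusted p = 0.021 in edgeR), and Calr, the gene of calreticulin, from 1280.3 ± 163 to 1625 ± 110.3 CPM (log2 change 0.34, standard error 0.10, adjusted p = 0.04 in edgeR). The count that rose was 6 with the replicate block, 5 with scaling by library size, 1 without hypoxia replicate 1 or normoxia replicate 1, and 0 without hypoxia replicates 2 or 3 or normoxia replicate 2. Of 22 genes of amino acid sensing by mTORC1, 1 fell and 1 rose (median 0.041), and 3 fell and 4 rose with the replicate block, in each case a share below that of all tested genes. Depdc5, a subunit of the GATOR1 complex that restrains mTORC1, fell from 34.5 ± 0.819 to 26.9 ± 1.14 CPM (log2 change -0.36, standard error 0.07, adjusted p = 0.0065 in edgeR), and Samtor, a sensor of S-adenosylmethionine, rose from 27.8 ± 3.68 to 37.2 ± 1.26 CPM (log2 change 0.42, standard error 0.10, adjusted p = 0.014 in edgeR). Without normoxia replicate 1 the genes that fell numbered 3, and without normoxia replicate 2 the number that rose was 0.

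**Figure D4:**
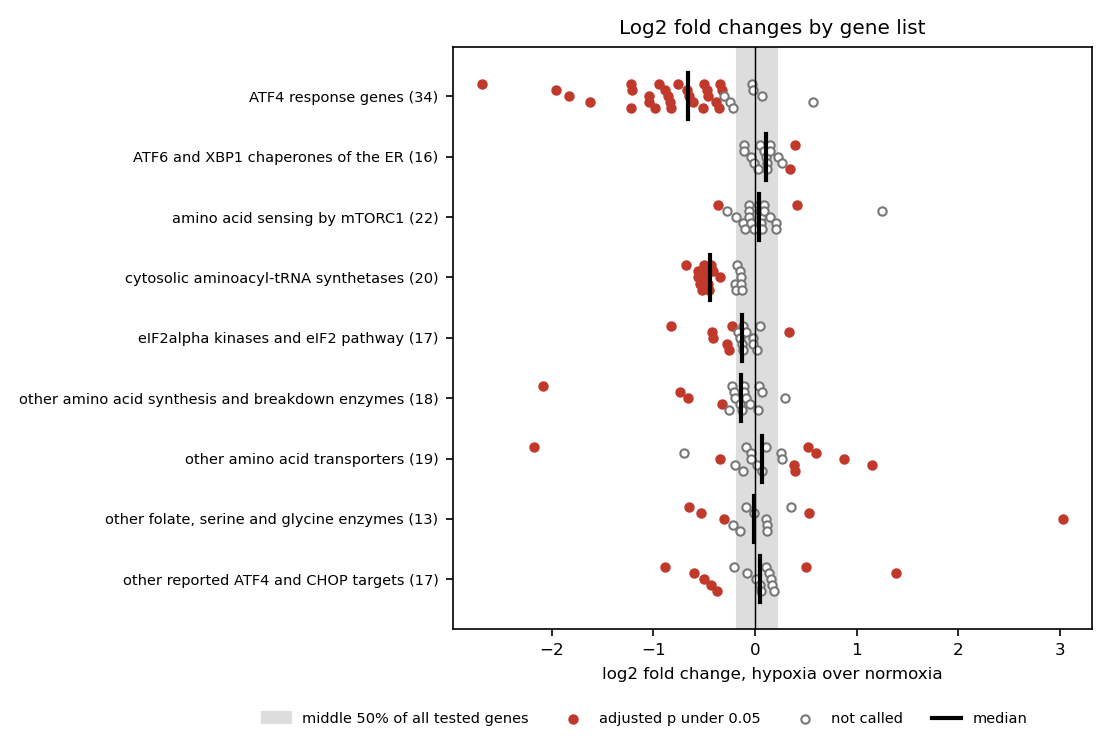
Log2 fold changes, hypoxia over normoxia, of the tested genes of the 34 members and of each other list, with the number of genes in brackets, filled points past the adjusted p of 0.05, a black bar at the median and the middle 50% of all tested genes shaded. The medians of the members (-0.66) and of the aminoacyl-tRNA synthetases (-0.45) lie left of the shaded band, and those of the other lists lie within it.

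Markers were checked for the labelled cells and for others that the cultures could hold. All 10 NK markers were measured, and Gzmb and Gzma, the most abundant, were among them. Gzmb had means of 11744 ± 1432 and 11992 ± 697 CPM and Gzma of 9931 ± 729.9 and 5684 ± 723 CPM, in hypoxia and normoxia respectively (SD, n = 3). Of the NK markers, Gzma rose and Eomes fell. Summed over 8 T cell markers, levels were 165 to 209 CPM in hypoxia and 111 to 129 CPM in normoxia, and 3 of them rose, Cd3g and Cd3d, which NK cells also transcribe, and Cd4, at 0.700 ± 0.176 and 0.217 ± 0.107 CPM in hypoxia and normoxia. Cd4 was low, at 0.324, 0.217 and 0.110 CPM in normoxia replicates 1, 2 and 3, so its call is uncertain. Basophil and mast cell markers summed to 76.8 to 90.7 CPM in hypoxia and 20.0 to 28.7 CPM in normoxia, nearly all of it Mcpt8, with Cpa3 next and the receptor genes Fcer1a and Ms4a2 at or near 0. Dendritic cell markers summed to 316 to 357 and 172 to 196 CPM, mostly Itgax followed by Zbtb46, with Clec9a at 0 and Flt3 and Siglech near it. Macrophage and monocyte markers gave 830.0 to 935 and 753 to 823 CPM, mostly Ccr2 and Cd68, with Adgre1 near 0. Ccr2 was not called, while Cd68 rose from 16.4 ± 6.15 to 61.9 ± 16.5 CPM and Cd14 fell from 3.88 ± 0.637 to 1.47 ± 0.303 CPM. B cell markers gave 72.9 to 77.8 and 54.8 to 70.2 CPM, mostly Ighm and then Cd79b, with Ms4a1 near 0. Neutrophil markers, led by S100a9 and S100a8, gave 0.788 to 2.13 and 0.127 to 0.324 CPM, and erythroid markers 0.052 to 0.14 and 0 to 0.072 CPM. Plasma cell markers, led by Xbp1 and Prdm1, gave 257 to 278 and 249 to 292 CPM, and markers of other innate lymphoid cells, led by Cd200r1 and Gata3, 79.7 to 96.9 and 65.2 to 75.5 CPM. Past the threshold were 2 of 3 tested basophil and mast cell markers (6 listed), 2 of 2 neutrophil (7 listed) and 2 of 5 innate lymphoid markers. So were 1 of 2 tested B cell (6 listed) and 1 of 3 plasma cell markers (4 listed), all of these higher. The innate lymphoid calls were Il7r and Rora. Il7r had means of 2.38 ± 0.664 and 0.369 ± 0.110 CPM in hypoxia and normoxia, and Rora of 25.8 ± 5.65 and 13.9 ± 0.743 CPM. The plasma cell call was Sdc1, at 5.22 ± 0.782 and 2.09 ± 0.452 CPM in hypoxia and normoxia. There were 2 higher with 1 lower among both 3 tested dendritic (6 listed) and 5 tested macrophage and monocyte markers (7 listed). These counts stand against 11.2% of all tested genes called higher and 9.72% called lower. Both neutrophil calls, S100a8 and S100a9, and that of Lyz2 among the macrophage and monocyte markers, at 0 in all normoxia libraries, concern genes that passed the filter through hypoxia alone. The part of these cells in the decreases of the ATF4 response genes was not tested.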

How the data were processed

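Estimated counts per Ensembl gene, as the authors deposited them for 6 strand-specific mRNA libraries, were the values analysed. The submitters' processing notes name Trim Galore 0.6.4, kallisto 0.4.6, edgeR 3.17 and the build GRCm39, without an order or settings. For the annotation, the step from transcripts to genes and the strand setting, nothing is given in the sources used here. The deposited log2 CPM files were not used. IDs were matched to symbols in GENCODE M21, which names 52029 of 56953 IDs, with older symbols where that table holds those, and all 34 members matched. A second ID with the symbol Ddit3 held 0 counts.

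Counts were rounded to whole numbers, filtered with filterByExpr (minimum count 10, minimum total 15), scaled with TMM and compared by the quasi-likelihood test of edgeR 4.0.16, with Benjamini-Hochberg adjustment over 15591 genes and a threshold of 0.05. Standard errors were derived from each log2 change and its F value. Alternatives were DESeq2 1.42.0 size factors and its Wald test, limma 3.58.1 (voom), library size scaling, no filter, a minimum count of 50, the replicate block, and left-out libraries. Across genes, the deviation from the group mean correlated between same-numbered libraries at 0.47, 0.33 and 0.30. The replicate numbers of the labels were used for the ratios of pairs and for the replicate block. The main test left them out and compared the groups without pairing.

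The members and lists were chosen with earlier results of these data known. By rule, every member is named, with the 2 genes of smallest p of each other list and the 2 most abundant tested genes of each marker list, and other names were chosen after their values were seen. Some genes that this rule picks are not reported here. Stretches shared with other genes were found with blastn (at least 95% identity over 200 bases of the longest GENCODE M21 transcript).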

Additional observations from a re-analysis of the deposited data

How the results depend on the processing

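Over 14 alternative settings, 20 of the 27 called members passed in each, all 27 kept a negative log2 fold change, 5 (Ddit3, Cebpb, Aldh1l2, Slc1a5 and Slc7a1) lost the call in at least 1, and Cth and Slc7a11 were not tested under the stricter filter. Leaving out single libraries gave 23 to 27 members lower and 0 to 1 higher, a member median of -0.68 to -0.61, 804 to 1636 genes lower and 1146 to 1980 higher. Vldlr was the 1 member called higher with scaling by library size, no filter, the DESeq2 Wald test, limma-voom, the replicate block and without both replicate 1 libraries. The replicate block called 3120 genes lower and 2988 higher, added Psph, Mthfd1l and Vldlr to the calls and lost no call of a member. Scaling by library size called 998 genes lower and moved the median of all genes from -0.0052 to 0.077 and that of the members to -0.58. Its list medians were -0.36 for the aminoacyl-tRNA synthetases, -0.042 for eIF2, -0.058 for other enzymes, 0.071 for other folate genes, 0.12 for mTORC1 sensing, 0.14 for other ATF4 and CHOP targets, 0.15 for other transporters and 0.19 for ER chaperones. With no filter the medians of other enzymes, other transporters and ER chaperones were -0.13, 0.032 and 0.0996, with the stricter filter -0.12, 0.10 and 0.13, and without both replicate 1 libraries that of other enzymes was -0.13. Left-out libraries gave medians of -0.20 to -0.098 for eIF2, -0.16 to -0.096 for other enzymes, -0.13 to -0.0027 for other folate genes, -0.0034 to 0.049 for mTORC1 sensing, -0.037 to 0.12 for other ATF4 and CHOP targets (negative without normoxia replicate 3), 0.0010 to 0.14 for other transporters and 0.036 to 0.19 for ER chaperones.

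Signs turned only in members that were not called. Atf5 was at -0.40 to 0.037 with single libraries left out, positive without normoxia replicate 1. Cebpg was at 0.061 with scaling by library size, at 0.016 without both replicate 1 libraries and at -0.087 to 0.065 with single libraries left out. Sesn2 was at 0.057 with scaling by library size and at -0.13 to 0.057 with single libraries left out, and Shmt1 at -0.016 without both replicate 1 libraries and at -0.083 to 0.34 with single libraries left out. The cause of these shifts was not tested. Over all settings the calls ranged from 2 to 8 lower for eIF2, 0 to 6 higher for ER chaperones, 1 to 3 lower and 0 to 4 higher for mTORC1 sensing, 3 to 7 lower and 0 to 1 higher for other enzymes, 1 to 4 lower for other transporters and 1 to 3 higher for other folate genes. Depth limits Slc7a11, Cth and Nupr1, whose lowest libraries held 6, 15 and 16 counts.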
